A study of Homo sapiens with 12 samples.

Results

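Long noncoding RNAs (lncRNAs) of LP-1 cells were followed under dihydroartemisinin (DHA). They were chosen by their mean level and gene type: the genes that GENCODE release 29 (GRCh38) types as lincRNA, antisense, sense intronic, sense overlapping or processed transcript and that had a mean of at least 5 FPKM over the 6 LP-1 libraries. FPKM counts the reads of a gene per length of its exons and per size of the library. Of 14640 genes of these 5 types in the LP-1 table of 61806 genes, 167 met the rule, among them 61 lincRNA, 73 antisense, 14 sense intronic, 19 processed transcript and no sense overlapping genes. A further 31 IDs with such a mean were not in GENCODE release 29 and were not used here.

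LP-1 is an established human multiple myeloma line with the genotype given as WT, grown in RPMI-1640 with fetal bovine serum. The 3 DHA libraries came from LP-1 cells given DHA, an artemisinin derivative, at its IC50 for 12 h, and the 3 DMSO libraries from LP-1 cells given an equal amount of the solvent for 12 h. The sources used here give neither the concentration nor whether the replicates were separate cultures, so p-values measure the spread between these samples, which may be technical. The series also holds U266 cells, another myeloma line, whose table was not used here.

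A lncRNA is a transcript that is not translated into a known protein, and its gene can lie alone, inside a coding gene, on the opposite strand of one, or back to back with one at a shared promoter. Some lncRNAs act as RNA, as scaffolds of nuclear bodies or as binding platforms for proteins. In others the spliced RNA is mainly the remainder of a precursor that carries small nucleolar RNAs (snoRNAs) in its introns or a microRNA (miRNA) hairpin in its body. snoRNAs guide ribose methylation and pseudouridylation of ribosomal RNA, and the spliced remainder of many snoRNA host RNAs is removed by nonsense-mediated decay.

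Libraries held 13.44 to 17.5 M reads in genes. The members had a median level of 7.75 FPKM, and 164 of 167 were at 1 FPKM or more in every library, while 88 had at least 100 reads in every library. One control library stood apart: set against counting error, the chi-square averaged over genes was 1.83 to 3.07 between DHA libraries and 9.11 between DMSO replicates 1 and 2, but 59.7 and 100 between either of these and DMSO replicate 3. DMSO replicate 3 was the highest of the 6 libraries in 76 members and the lowest in 38. All members were in the test, and the main counts are given with and without that library. The markers of plasma cells were present, with 8 of 9 at a mean of at least 1 FPKM (the ninth was SLAMF7). Their summed level, most of it JCHAIN, was 3565 to 3817 FPKM in DHA libraries and 3890 to 4683 FPKM in DMSO libraries. All DHA values lay below all DMSO values in SDC1 (4.84 to 5.72 against 29.14 to 32.56 FPKM), CD38, TNFRSF17, XBP1, MZB1 and JCHAIN. They lay above them in IRF4 (244.35 to 260.02 against 64.18 to 92.1 FPKM), PRDM1 and SLAMF7. Groups were separate in 58.8% of all tested genes. Marker sums of the B cell, T and NK cell, monocyte and erythroid lists stayed at or under 0.7 FPKM in DHA libraries and 1.28 FPKM in DMSO libraries, with CD3D and CD3G of the T cell list at 0, and stromal and endothelial markers summed to 1.59 to 1.66 FPKM in DHA libraries and 3.97 to 5.29 FPKM in DMSO libraries.

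Among lncRNAs of at least 5 FPKM in both groups, falls outnumbered rises. Of these 104, 12 rose and 31 fell under DHA at an adjusted p under 0.05 (limma, Benjamini-Hochberg over 12514 tested genes), which is 41.3%, beside 39.8% of the 6187 tested genes at 5 FPKM or more in both groups. Their split was 11.5% higher and 29.8% lower, beside 21.9% higher and 17.9% lower in those genes. Without DMSO replicate 3, 21 of the 104 rose and 41 fell (20.2% and 39.4%), beside 62.1% of the 6187 genes called, 33.7% higher and 28.4% lower. The median log2 change of FPKM + 1 was -0.16 in the 104 lncRNAs and 0.02 in the 6187 genes. A further 47 members reached the mean of 5 FPKM only through the DMSO libraries and 16 only through the DHA libraries, so that their direction was set by how they were chosen.

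Over all 167 members, 23 were called higher, 68 lower and 76 neither, beside 40.2% of all tested genes called, 20% higher and 20.2% lower. All 3 DHA values lay above all 3 DMSO values in 31 members and below them in 87, where such separation was seen in 58.8% of all tested genes, 30.2% higher and 28.6% lower. A change of at least 2-fold on the FPKM + 1 scale was called in 7 rises and 25 falls, beside 394 rises and 501 falls among all 12514 tested genes. The member counts hold those whose direction was set by the rule. Without DMSO replicate 3 the calls were 32 higher and 80 lower, beside 56.5% of all tested genes, 28% higher and 28.6% lower. Of the 91 calls 90 were made again without it, none changed sign, and 10 rises and 12 falls were added. With 1 DHA library left out, 56, 57 or 60 members were called (without DHA replicate 1, 2 or 3). The calls over all tested genes were then 2919, 2920 or 2994, beside 5027 with all libraries.

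**Figure D1:**
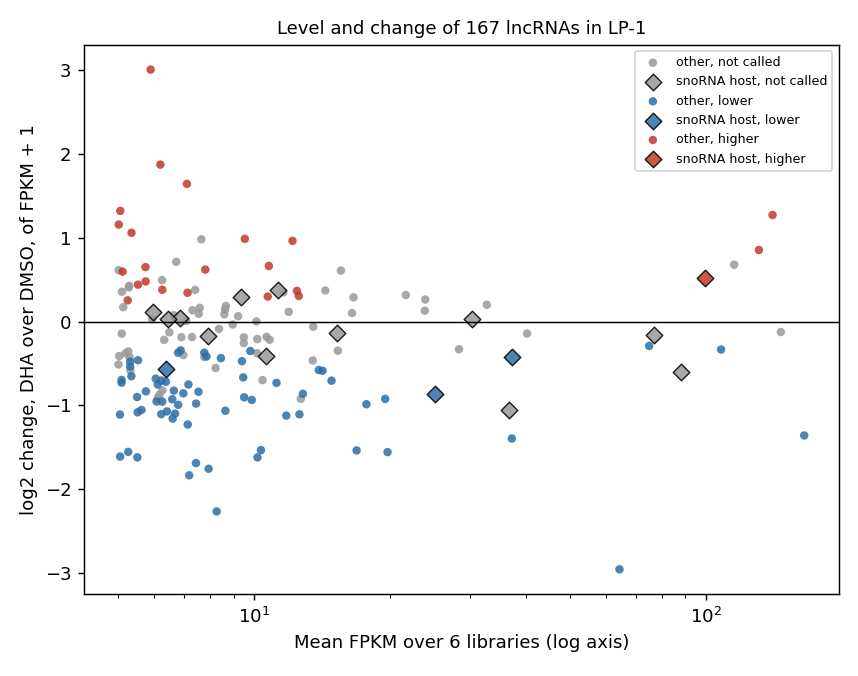
Mean FPKM over the 6 LP-1 libraries (log axis) against the log2 change of FPKM + 1, DHA over DMSO, for the 167 lncRNAs. Diamonds are the 16 snoRNA hosts and circles the 151 others, coloured by call (limma, adjusted p under 0.05), and most coloured points lie below 0 (68 of 91). Of the 68 falls, 37 are members with a mean under 5 FPKM in DHA libraries. Of the 23 rises, 11 are members with a mean under 5 FPKM in DMSO libraries. The direction of these members was set by the rule.

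The counts were split by exon length among the 104 lncRNAs of at least 5 FPKM in both groups. Of 41 with under 1 kb of exons 2 rose and 16 fell, of 30 with 1 to 3 kb 6 rose and 6 fell, and of 33 with 3 kb or more 4 rose and 9 fell. Protein-coding genes of that level gave 0 rises and 21 falls of 63 under 1 kb, 142 and 349 of 1349 at 1 to 3 kb, and 1178 and 643 of 4375 at 3 kb or more. Without DMSO replicate 3 the lncRNAs gave 3 rises and 21 falls, 9 and 11, and 9 and 9 in the same order of length, and the coding genes 4 and 33, 318 and 475, and 1710 and 1101. The log2 level in DMSO replicate 3 exceeded that in the other DMSO libraries by a median of 0.13 in all members under 1 kb, 0.22 in those of 1 to 3 kb and -0.02 in those of 3 kb or more, beside 0.67, 0.40 and -0.12 in coding genes with a mean of at least 5 FPKM. The differences between lengths, and the part of length or of that library in the lncRNA counts, were not tested. Since the libraries were made from bulk RNA, fewer expressing cells and less RNA per cell cannot be told apart.

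Whether the library kept the strand is not stated, so reads of a lncRNA and of an exon on the opposite strand cannot be told apart. Such an overlap was annotated for 70 members, 48 of them among the 104 of at least 5 FPKM in both groups. Of these 48, 3 rose and 11 fell (29.2% called), and of the 56 without an overlap 9 rose and 20 fell (51.8%), beside 39.8% of all genes of that level. Without DMSO replicate 3 the counts were 8 and 14 of the 48 (45.8%) and 13 and 27 of the 56 (71.4%), beside 62.1%. The difference between the 2 sets was not tested. Overlap lengths given below are summed over all genes on the strand in question, not taken from the named partner alone. Exon overlap with another gene on the same strand was annotated for 16 members, SNHG4 and SNHG3 among them. Reads of such genes cannot be told apart by strand.

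snoRNA host RNAs came first among the classes. The 16 hosts, lncRNAs with at least 1 GENCODE snoRNA inside the gene on the same strand, held 38 annotated snoRNA genes at 34 places. One host rose (SNHG1), 3 fell (SNHG4, SNHG3 and SNHG30) and 12 did not pass the test. That is 25% called, beside 40.2% of all tested genes, with a median log2 change of -0.14 beside 0.01. Without DMSO replicate 3, 5 hosts were called higher and 5 lower (62.5%, beside 56.5% of all tested genes), and the median was 0.03. SNHG30 reached the mean of 5 FPKM only through the DMSO libraries. GAS5, a classic snoRNA host in which release 29 annotates no snoRNA, falls by the rule among the other lncRNAs and did not pass either.

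Many snoRNA hosts begin with a 5′ terminal oligopyrimidine (TOP) tract, a C followed by pyrimidines that is also found at the start of ribosomal protein mRNAs and ties translation to nutrient signalling. RefSeq promoters (GRCh38.p14) were matched for 90 members, 14 of them hosts. A C at the annotated start followed by at least 4 pyrimidines was found in 5 of these 14 hosts (35.7%), in 1 of 76 other lncRNAs (1.32%) and in 4.04% of the 27305 promoters of the table. The 5 starts are shown with that of SNHG1, the host that rose, which has no such tract at this annotated start. Each run spans 10 bases before to 30 bases from the start, and capitals mark the tract.
SNHG4 start: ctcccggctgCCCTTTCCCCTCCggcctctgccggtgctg
SNHG19 start: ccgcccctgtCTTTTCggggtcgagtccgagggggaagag
ZFAS1 start: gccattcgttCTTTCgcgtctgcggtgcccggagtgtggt
SNHG5 start: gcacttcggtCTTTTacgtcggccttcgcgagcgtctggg
SNHG12 start: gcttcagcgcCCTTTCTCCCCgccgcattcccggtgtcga
SNHG1 start: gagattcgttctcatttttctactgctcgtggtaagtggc

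Of these 5 TOP-start hosts SNHG4 fell, and SNHG19, ZFAS1, SNHG5 and SNHG12 did not pass the test over all 6 libraries. The starts lie at chr5:139274091-139274130 (plus strand) for SNHG4, chr16:2155329-2155368 (minus) for SNHG19, chr20:49278632-49278671 (plus) for ZFAS1, chr6:85678704-85678743 (minus) for SNHG5, chr1:28581844-28581883 (minus) for SNHG12 and chr11:62855856-62855895 (minus) for SNHG1.

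SNHG1, whose gene holds SNORD22, SNORD25, SNORD26, SNORD27, SNORD28 and SNORD30 among others, rose. Its release 29 exons, merged over transcripts, cover 3756 bases of chr11:62851988-62855914, so its level may include reads of retained introns. It had 113.91, 116.30 and 121.07 FPKM in DHA libraries, against 76.42, 72.53 and 96.30 FPKM in DMSO libraries. All DHA values lay above all DMSO values. The means were 117 ± 3.65 FPKM in DHA libraries and 81.8 ± 12.7 FPKM in DMSO libraries (SD, n = 3 each), a log2 change of 0.52 ± 0.12 (SE; adjusted p = 0.0164, limma). The call was kept without DMSO replicate 3 (0.65, adjusted p = 0.000213) and lost without DHA replicate 1, 2 or 3 (adjusted p = 0.059, 0.0641 and 0.0694) or DMSO replicate 1 (0.0615).

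SNHG1 starts back to back with SLC3A2, the heavy chain of several amino acid transporters, with 188 bases between the GENCODE starts, on chromosome 11. SLC3A2 had 120.27, 130.34 and 127.90 FPKM in DHA libraries, against 36.76, 28.96 and 46.90 FPKM in DMSO libraries, and rose with a log2 change of 1.75 (adjusted p = 0.000808, limma). The shared region is shown because both RNAs of it rose; it is the minus strand of chr11:62855836-62856135 (RefSeq, GRCh38.p14), from 250 bases before to 50 bases from the RefSeq start of SNHG1. Capitals mark a pair of matches to the metal response element of MTF1, searched as TGCACNC and TGCGCNC on both strands, which 29.3% of all promoters hold.
SNHG1 promoter: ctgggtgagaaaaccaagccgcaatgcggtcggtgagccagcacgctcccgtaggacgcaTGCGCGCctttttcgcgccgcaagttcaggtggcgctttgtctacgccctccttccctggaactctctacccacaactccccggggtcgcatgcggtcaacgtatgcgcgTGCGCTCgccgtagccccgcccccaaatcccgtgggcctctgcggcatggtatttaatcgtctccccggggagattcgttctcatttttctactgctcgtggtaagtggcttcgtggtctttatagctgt

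SNHG4, the host of SNORA74A and SNORA74D, fell in every setting run. It had 16.96, 18.40 and 17.46 FPKM in DHA libraries, against 32.14, 32.08 and 33.99 FPKM in DMSO libraries. The groups did not overlap, and the log2 change was -0.86 ± 0.07 (adjusted p = 0.000462, limma). Over the alternative settings it ran from -0.89 to -0.72. SNHG4 overlaps the gene of SIL1, a chaperone exchange factor on the other strand, which also fell (log2 change -0.71, adjusted p = 0.00409). Exons of SNHG4 overlap those of genes on the opposite strand by 118 bases and of genes on the same strand by 626 bases.

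SNHG3, the host of SNORA73A and SNORA73B, had 31.65, 31.43 and 31.09 FPKM in DHA libraries, against 38.94, 37.63 and 52.45 FPKM in DMSO libraries. All DHA values were lower, and it fell with a log2 change of -0.43 ± 0.13 (adjusted p = 0.0443, limma). The change was -0.28 without DMSO replicate 3 (adjusted p = 0.00252). Exons of SNHG3 overlap those of genes on the same strand by 242 bases, where reads cannot be told apart. The call was lost without DHA replicate 1, 2 or 3 (adjusted p = 0.121, 0.124 and 0.125), without DMSO replicate 1 (0.0669), with TMM-style scaling (0.0574) and with no filter on low values (0.0928). SNHG30, the host of SNORD7, had 4.94, 5.15 and 4.60 FPKM in DHA libraries, against 7.49, 5.99 and 10.05 FPKM in DMSO libraries. It fell with a log2 change of -0.56 ± 0.17 (adjusted p = 0.0383, limma), a call lost without DHA replicate 1, 2 or 3 (0.105, 0.0929 and 0.118), without DMSO replicate 1 (0.0903) and with no filter on low values (0.0889). SNHG30 was at -0.39 without DMSO replicate 3 (adjusted p = 0.0163).

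For 6 further hosts a call was made when a DMSO library was left out, and for 4 of them also under another scaling. SNHG19, the host of SNORD60, had 19.99, 24.38 and 20.74 FPKM in DHA libraries, against 40.12, 27.73 and 87.12 FPKM in DMSO libraries. All its DHA values were lower, but the DMSO values spread widely, and the log2 change of -1.06 did not pass (adjusted p = 0.0698, limma). It passed at -0.60 without DMSO replicate 3 (adjusted p = 0.0199) and at -1.41 without DMSO replicate 2 (0.0184), and with quantile normalization it passed at -1.01 (0.0415). SNHG6, the host of SNORD87, had 69.78, 68.27 and 66.72 FPKM in DHA libraries, against 86.88, 82.90 and 155.39 FPKM in DMSO libraries. Its DHA values were again the lower ones, with a log2 change of -0.60 (adjusted p = 0.0871, limma) that passed at -0.31 without DMSO replicate 3 (0.00234) and at -0.76 without DMSO replicate 2 (0.0474), and with quantile normalization at -0.48 (0.0254).

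The other 4 were higher in DHA libraries once DMSO replicate 3 was left out. SNHG7 had 12.70, 12.83 and 12.67 FPKM in DHA libraries, against 8.88, 6.93 and 13.87 FPKM in DMSO libraries. DMSO replicate 3 lay above all DHA values of SNHG7 and the other DMSO libraries below them. The log2 change was 0.38 (adjusted p = 0.2, limma) with DMSO replicate 3 and 0.63 (adjusted p = 0.00223) without it. It was 0.52 (adjusted p = 0.044) when libraries were rescaled by summed FPKM without immunoglobulin and mitochondrially encoded genes. SNHG16, the host of the SNORD1 genes, had 10.87, 10.57 and 9.76 FPKM in DHA libraries, against 9.25, 7.34 and 8.33 FPKM in DMSO libraries. Its groups did not overlap, and leaving out DMSO replicate 3 (0.30, adjusted p = 0.0411) or DMSO replicate 1 (0.37, adjusted p = 0.0489) gave a call, beside 0.30 (adjusted p = 0.0542) with all libraries. SNHG16 also passed under that other scaling (0.43, adjusted p = 0.0272) and when only genes averaging 5 FPKM or more were tested (0.30, adjusted p = 0.0492).

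ZFAS1, the host of the SNORD12 genes, had 29.18, 30.12 and 31.80 FPKM in DHA libraries, against 27.35, 23.39 and 40.70 FPKM in DMSO libraries. The DHA values lay between those of DMSO replicates 1 and 3. Its log2 change was 0.03 (adjusted p = 0.905, limma), 0.25 without DMSO replicate 3 (adjusted p = 0.0316) and -0.13 without DMSO replicate 2 (adjusted p = 0.549). SNHG5, the host of SNORD50B, had 6.19, 6.33 and 6.43 FPKM in DHA libraries, against 5.43, 3.99 and 10.32 FPKM in DMSO libraries, with the same order of libraries. Its log2 change was 0.04 (adjusted p = 0.925) with all libraries, 0.37 without DMSO replicate 3 (adjusted p = 0.0298) and -0.22 without DMSO replicate 2 (adjusted p = 0.468).

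The remaining 6 hosts did not pass with or without DMSO replicate 3. SNHG29 was the most abundant of them at 72.4 ± 1.5 FPKM in DHA libraries and 80.9 ± 8.16 FPKM in DMSO libraries (log2 change -0.15). DANCR, which also holds a miRNA, averaged 14.5 FPKM in DHA libraries and 16 FPKM in DMSO libraries (-0.14). SNHG8 averaged 8.67 FPKM in DHA libraries and 12.6 FPKM in DMSO libraries (-0.40). For EPB41L4A-AS1 the means were 7.21 FPKM in DHA libraries and 8.63 FPKM in DMSO libraries (-0.17). SNHG15 (log2 change 0.12) and SNHG12 (0.04) averaged 6.26 and 6.9 FPKM in DHA libraries, against 5.7 and 6.79 FPKM in DMSO libraries. GAS5 had 135.74, 139.33 and 140.12 FPKM in DHA libraries, against 142.12, 118.49 and 203.60 FPKM in DMSO libraries. The DHA values of GAS5 lay inside the DMSO range (log2 change -0.12, adjusted p = 0.634, limma).

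**Figure D2:**
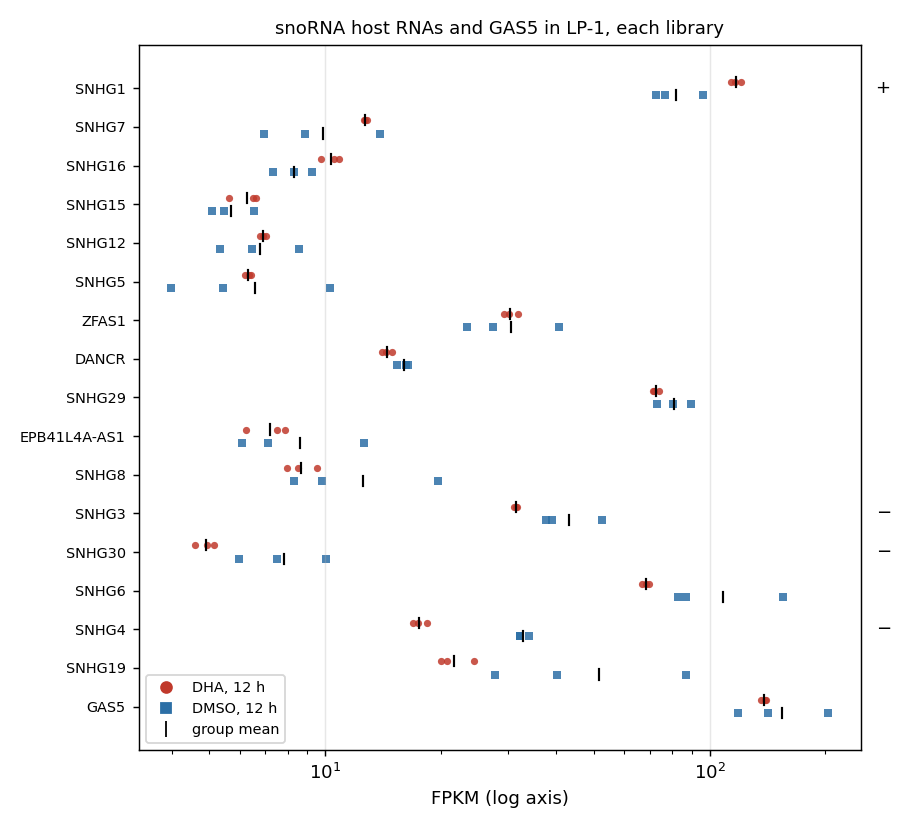
FPKM of the 16 snoRNA hosts and of GAS5 in each LP-1 library (log axis), DHA circles above DMSO squares, with a black tick at each group mean. A plus or minus at the right marks a call, and in most hosts the DHA libraries lie close together while the DMSO libraries spread, as in SNHG19 (19.99 to 24.38 FPKM in DHA libraries and 27.73 to 87.12 FPKM in DMSO libraries).

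The snoRNAs themselves mostly had no reads in the values as deposited. Since the counter is unknown, absence from the libraries and reads not assigned where annotated genes overlap cannot be told apart. Of 38 snoRNA rows of the hosts 32 were at 0 in all libraries. The exception that passed the test was SNORD12B, a box C/D snoRNA in ZFAS1, with 16.86, 11.30 and 10.05 FPKM in DHA libraries, against 4.91, 3.25 and 3.56 FPKM in DMSO libraries. These rest on 13 to 23 reads a library in DHA and 4 to 6 in DMSO. All DHA values were higher, with a log2 change of 1.47 ± 0.21 (adjusted p = 0.00298, limma), and the change was 1.42 without DMSO replicate 3 (adjusted p = 0.00307, limma). The host ZFAS1 was at 0.03. Reads of mature SNORD12B and of unspliced ZFAS1 RNA at the same place cannot be told apart here. SNORD12C of the same host had no more than 5 reads in any library. SNORA73B of SNHG3 had 7.20, 12.88 and 10.69 FPKM in DHA libraries and 8.39, 7.62 and 12.08 FPKM in DMSO libraries (log2 change 0.11, adjusted p = 0.732), and SNORD99 of SNHG12 was at 0.23 (adjusted p = 0.631). SNORD12B is shown with the other snoRNAs of ZFAS1, whose rows differ from it in level, as GENCODE release 29 gives them, with the C box (TGATGA) and D box (CTGA) in capitals. They lie on the plus strand at chr20:49280319-49280409, chr20:49280683-49280772 and chr20:49278940-49279028 (GRCh38).
SNORD12B: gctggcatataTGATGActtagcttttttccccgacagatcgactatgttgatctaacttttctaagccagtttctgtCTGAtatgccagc
SNORD12: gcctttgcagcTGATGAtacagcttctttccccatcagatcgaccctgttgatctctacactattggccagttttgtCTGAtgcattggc
SNORD12C: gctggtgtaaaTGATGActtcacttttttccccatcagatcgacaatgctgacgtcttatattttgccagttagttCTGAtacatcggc

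Other snoRNA hosts and the machinery around snoRNAs gave a mixed picture. Coding hosts that are ribosomal protein genes numbered 29, of which 0 rose and 12 fell, with a median log2 change of -0.59. That is 41.4% called, all of them lower, beside 40.2% of all tested genes called and 20.2% lower. There were 23 falls without DMSO replicate 3 (79.3%, beside 56.5% called and 28.6% lower). The 171 other coding hosts had 47 rises and 15 falls (27.5% and 8.77%, beside 20% and 20.2%; median 0.21), and 78 rises and 27 falls without DMSO replicate 3 (45.6% and 15.8%, beside 28% and 28.6%). Of 12 snoRNP proteins, the core and assembly factors of snoRNA particles, NOP56 (log2 change 0.29) and NOP58 (0.59) of box C/D particles rose and NOP10 (-0.75) of box H/ACA particles fell (25% called, beside 40.2%). Of 14 nonsense-mediated decay factors 4 rose, SMG1 (1.15), UPF2 (0.53), SMG9 (0.48) and UPF1 (0.39), and none fell. The median was 0.40. The share called was 28.6%, below the 40.2% of all tested genes, and without DMSO replicate 3 there were 9 rises (64.3%, beside 56.5%).

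Among the 151 other lncRNAs 22 rose, 65 fell and 64 did not pass (57.6% called, beside 40.2% of all tested genes), a count that holds the members whose direction the rule set. Of the 89 with at least 5 FPKM in both groups 11 rose and 29 fell (44.9%, beside 39.8% of genes of that level), with a median log2 change of -0.18, and without DMSO replicate 3 there were 16 rises and 37 falls (59.6%, beside 62.1%).

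The most abundant rises were LINC01480 and NORAD. NORAD, a long cytoplasmic RNA induced by DNA damage that binds PUMILIO proteins, had 168.87, 165.64 and 171.52 FPKM in DHA libraries, against 99.99, 102.87 and 77.59 FPKM in DMSO libraries. Every DHA value lay above every DMSO value, with a log2 change of 0.86 ± 0.12 (adjusted p = 0.00307, limma). LINC01480 on chromosome 19 had 194.08, 198.22 and 204.36 FPKM in DHA libraries, against 80.77, 72.26 and 93.42 FPKM in DMSO libraries. Its groups stood well apart (log2 change 1.27 ± 0.11, adjusted p = 0.000564).

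AC243960.3 ends 3009 bases before the start of LINC01480 on the same strand and rose too. It had 11.71, 10.44 and 10.53 FPKM in DHA libraries, against 3.15, 5.81 and 0.94 FPKM in DMSO libraries. AC243960.3 reached the mean of 5 FPKM only through the DHA libraries, so its direction was set by the rule. The log2 change was 1.64 ± 0.42 (adjusted p = 0.023, limma), and 1.16 without DMSO replicate 3 (adjusted p = 0.00365). The call was lost without DHA replicate 1, 2 or 3 (0.0757, 0.0681 and 0.0701), without DMSO replicate 1 (0.0598) and with no filter on low values (0.0622).

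CHILL1 was nearly absent from DMSO libraries. It had 9.09, 12.77 and 11.90 FPKM in DHA libraries, against 0.25, 1.01 and 0.37 FPKM in DMSO libraries, where its lowest value stood for 3 reads. The log2 change of 3.01 ± 0.21 (adjusted p = 0.000269, limma) was the largest of the members. CHROMR, a primate RNA known for binding miRNAs of cholesterol control, had 7.49, 7.44 and 6.86 FPKM in DHA libraries, against 2.96, 3.48 and 1.85 FPKM in DMSO libraries. Its groups were separate, with a log2 change of 1.16 ± 0.17 (adjusted p = 0.00322). CHILL1 and CHROMR reached the mean of 5 FPKM only through the DHA libraries, so their direction was set by the rule. CHROMR has an opposite-strand exon overlap of 85 bases and overlaps PRKRA, the gene of a kinase activator on that strand. PRKRA rose as well (0.34, adjusted p = 0.0158) and lost its call without DHA replicate 1, 2 or 3 (0.0643, 0.0719 and 0.0701).

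Of the 12 largest rises, 3 started within 5 kb of a coding gene on the opposite strand that also rose, and are given with their partners below. TWF2-DT had means of 13.4 ± 1.4 FPKM in DHA libraries and 8.13 ± 1.36 FPKM in DMSO libraries (log2 change 0.66, adjusted p = 0.00936). Its partner TWF2 was at 0.37 (adjusted p = 0.105), and at 0.55 without DMSO replicate 3 (adjusted p = 0.00151). AC138028.4 had 7.49 ± 0.22 FPKM in DHA libraries and 3.21 ± 1.28 FPKM in DMSO libraries (1.06, adjusted p = 0.0135, and 0.0528 without DHA replicate 3). It has an opposite-strand exon overlap of 1427 bases and overlaps the gene of PIEZO1, a mechanosensitive channel. PIEZO1 had a log2 change of 0.61 (adjusted p = 0.0817), and of 0.33 without DMSO replicate 3 (adjusted p = 0.0105). AC138393.3 had 7.48 ± 0.759 FPKM in DHA libraries and 2.63 ± 1.56 FPKM in DMSO libraries (1.32, adjusted p = 0.0194). Its call was lost without DHA replicate 1, 2 or 3 (0.0603, 0.0587 and 0.0718), without DMSO replicate 1 (0.0505) and with no filter on low values (0.0537). AC138028.4 and AC138393.3 reached the mean of 5 FPKM only through the DHA libraries, so their direction was set by the rule.

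The fall of LINC03034 was the largest of all members. It had 14.10, 14.10 and 13.43 FPKM in DHA libraries, against 119.73, 125.99 and 98.93 FPKM in DMSO libraries, a level 0.121 times that in DMSO. The log2 change was -2.95 ± 0.11 (adjusted p = 4.62e-05, limma) and ran from -3.06 to -2.81 over the alternative settings. LINC02352 lies on the opposite strand at chr15:31216020-31224445, its span overlapping that of LINC03034 (chr15:31221999-31230838, minus strand) by 2447 bases with no shared exon bases, and it fell too. It had 3.33, 2.26 and 2.59 FPKM in DHA libraries, against 13, 18.07 and 5.34 FPKM in DMSO libraries. LINC02352 reached the mean of 5 FPKM only through the DMSO libraries, so its direction was set by the rule. The DMSO values of LINC02352 spread widely but all lay higher (log2 change -1.69, adjusted p = 0.0161, and -2.14 without DMSO replicate 3), and the call was lost without DHA replicate 2 or 3 (0.061 and 0.058) and without DMSO replicate 1 (0.0577).

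The promoter of LINC03034 is shown as that of the member with the largest fall. It is the minus strand of chr15:31230813-31231112 (RefSeq, GRCh38.p14). Capitals mark matches to the metal response element, which overlap each other in the second run, and to the E-box CACGTG, which 7.43% of all promoters hold.
LINC03034 promoter: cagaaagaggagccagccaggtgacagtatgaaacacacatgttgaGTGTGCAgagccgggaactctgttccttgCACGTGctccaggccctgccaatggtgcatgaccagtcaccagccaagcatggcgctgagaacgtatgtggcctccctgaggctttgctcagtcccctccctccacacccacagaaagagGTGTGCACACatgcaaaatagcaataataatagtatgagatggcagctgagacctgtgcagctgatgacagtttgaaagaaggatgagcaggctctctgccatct

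Over the 90 members with a RefSeq promoter, 46.7% held a metal response element match, beside 29.3% of all promoters. The share was 33.3% in the 9 members that rose, 50% in the 40 that fell and 46.3% in the 41 that did not pass. The antioxidant element TGACNNNGC was held by 16.7% beside 13.6%, the heat shock element GAANNTTC by 6.67% beside 6.87%, and the E-box by 7.78% beside 7.43%. The ATF4 element TGATGCAA was in 0 of 90 and in 0.923% of all promoters.

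AC018645.2, a lincRNA on chromosome 7, had the highest mean level of the members and fell. It had 88.35, 91.74 and 96.76 FPKM in DHA libraries, against 226.10, 244.17 and 243.69 FPKM in DMSO libraries. The groups stood far apart (log2 change -1.36 ± 0.08, adjusted p = 0.000196, limma), and its opposite-strand exon overlap is 35 bases. AC136475.3, also among the 5 most abundant, had 137.48, 147.01 and 130.18 FPKM in DHA libraries, against 105.74, 125.84 and 47.20 FPKM in DMSO libraries. All its DHA values were higher, but it did not pass (log2 change 0.68, adjusted p = 0.16, and 0.26 without DMSO replicate 3).

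The other large falls ran from log2 changes of -1.83 to -1.53, beside that of MIR142HG below. AL591895.1 had means of 2.63 ± 0.878 FPKM in DHA libraries and 11.7 ± 1.34 FPKM in DMSO libraries. AC022239.1 had 3.08 ± 0.0265 FPKM in DHA libraries and 12.8 ± 0.405 FPKM in DMSO libraries. FMNL1-DT, which starts inside the formin gene FMNL1 and has an opposite-strand exon overlap of 637 bases, had 4.48 ± 0.156 FPKM in DHA libraries and 15.9 ± 1.37 FPKM in DMSO libraries. FMNL1 was at a log2 change of -0.22 (adjusted p = 0.17), and at -0.34 without DMSO replicate 3 (adjusted p = 0.0017). PIK3CD-AS2 had 2.19 ± 0.34 FPKM in DHA libraries and 8.83 ± 1.5 FPKM in DMSO libraries. HM13-AS1, opposite the peptidase gene HM13 and with an opposite-strand exon overlap of 242 bases, had 1.9 ± 0.32 FPKM in DHA libraries and 8.19 ± 3.22 FPKM in DMSO libraries. HM13 was at a log2 change of 0.27 (adjusted p = 0.0332, a call lost without DHA replicate 1, 2 or 3 at 0.125, 0.12 and 0.107 and without DMSO replicate 1 at 0.0702). AP002387.1 had 9.48 ± 0.576 FPKM in DHA libraries and 30 ± 4.49 FPKM in DMSO libraries. AC242842.1 had 7.96 ± 1.1 FPKM in DHA libraries and 25.8 ± 8.68 FPKM in DMSO libraries. AP001033.2, a sense intronic RNA, had 4.85 ± 0.903 FPKM in DHA libraries and 15.9 ± 1.88 FPKM in DMSO libraries. These 8 fell in every setting run, with adjusted p from 5.48e-05 to 0.00391 over all libraries (limma). However, AL591895.1, AC022239.1, FMNL1-DT, PIK3CD-AS2, HM13-AS1 and AP001033.2 reached the mean of 5 FPKM only through the DMSO libraries. Their direction was set by the rule.

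**Figure D3:**
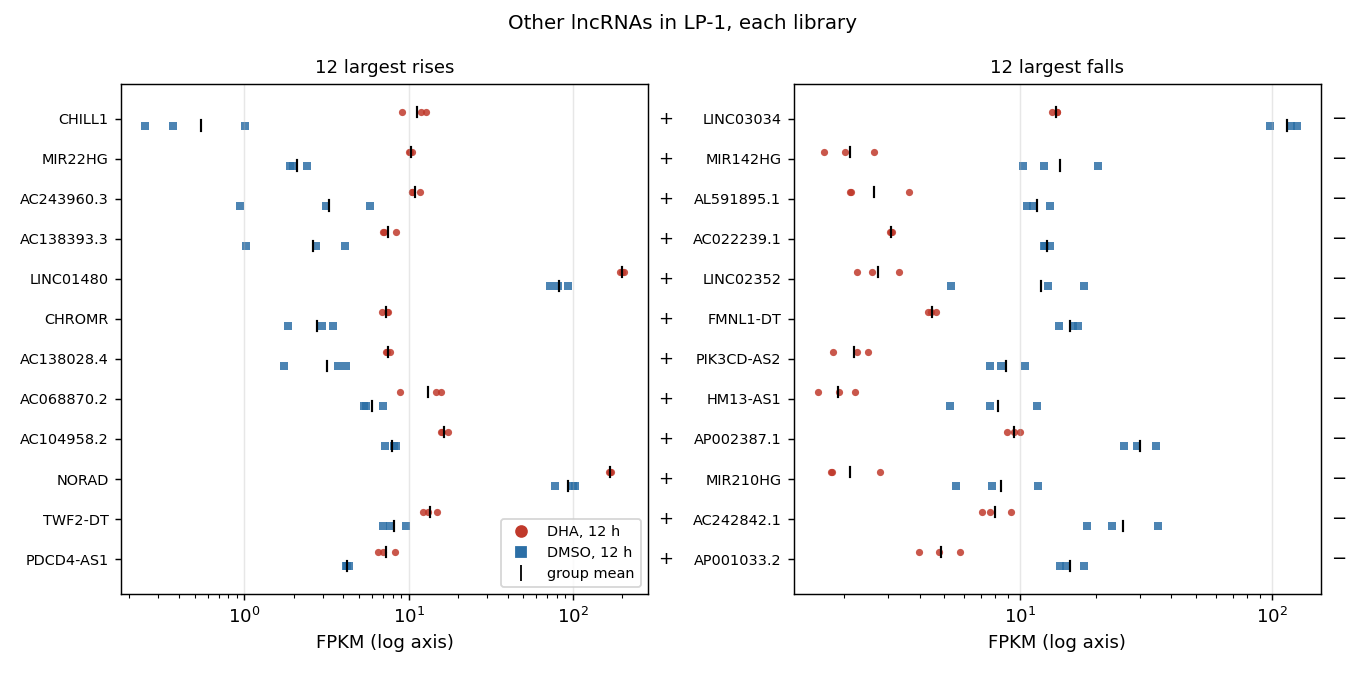
FPKM of the 12 largest rises (left) and 12 largest falls (right) among the other lncRNAs in each LP-1 library (log axes), DHA circles above DMSO squares, with a black tick at each group mean. The 24 were picked as the largest called changes in these same values, so the lack of overlap of their groups is no separate result. Such separation was seen in 58.8% of all tested genes. LINC03034 (13.43 to 14.10 FPKM in DHA libraries, 98.93 to 125.99 FPKM in DMSO libraries) is the most abundant of the falls. Members that reached the mean of 5 FPKM only through the DHA or only through the DMSO libraries had their direction set by the rule.

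miRNA hosts numbered 8, with 14 annotated miRNA genes on their strand. One rose, MIR22HG, 6 fell (MIR142HG, MIR210HG, MIR17HG, MIR3142HG, GABPB1-AS1 and NEAT1) and DANCR did not pass, beside 40.2% of all tested genes called. MIR22HG reached the mean of 5 FPKM only through the DHA libraries, and MIR142HG, MIR210HG and GABPB1-AS1 only through the DMSO libraries, so their direction was set by the rule. The mature sequences of the miRNAs of the called hosts whose textbook roles are known are shown (RefSeq, GRCh38.p14), since a host's level says only how much of the spliced or primary RNA was present, with the seed (bases 2 to 8) in capitals. miR-17-5p and miR-20a-5p share a seed, as do miR-19a-3p and miR-19b-3p. Mature miRNAs were not measured.
miR-22-3p: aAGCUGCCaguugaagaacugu
miR-142-3p: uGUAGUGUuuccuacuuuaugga
miR-142-5p: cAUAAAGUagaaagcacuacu
miR-210-3p: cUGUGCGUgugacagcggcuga
miR-146a-5p: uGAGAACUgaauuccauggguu
miR-17-5p: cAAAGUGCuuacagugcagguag
miR-20a-5p: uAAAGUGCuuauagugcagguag
miR-19a-3p: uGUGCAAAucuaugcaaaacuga
miR-19b-3p: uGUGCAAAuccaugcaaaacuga
miR-18a-5p: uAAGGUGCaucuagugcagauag
miR-92a-3p: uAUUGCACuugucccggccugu

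MIR22HG, the host of miR-22, had 10.24, 10.13 and 10.55 FPKM in DHA libraries, against 1.89, 1.98 and 2.40 FPKM in DMSO libraries. Its DHA level was 4.93 times the DMSO level, and the log2 change was 1.87 ± 0.09 (adjusted p = 9.99e-05, limma). MIR142HG, the host of miR-142 of blood cells, had 2.03, 2.64 and 1.67 FPKM in DHA libraries, against 12.53, 10.26 and 20.42 FPKM in DMSO libraries. It fell with no overlap of the groups (log2 change -2.26 ± 0.25, adjusted p = 0.0012). MIR210HG, the host of the hypoxia-induced miR-210, had 1.78, 2.78 and 1.79 FPKM in DHA libraries, against 7.78, 5.57 and 11.86 FPKM in DMSO libraries. It fell as well (log2 change -1.55 ± 0.26, adjusted p = 0.00504).

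MIR17HG, the host of the oncogenic cluster from miR-17 to miR-92a, had 10.71, 10.99 and 11.11 FPKM in DHA libraries, against 17.27, 15.40 and 23.50 FPKM in DMSO libraries. It fell (log2 change -0.70 ± 0.15, adjusted p = 0.0124, limma, and 0.0514 without DHA replicate 1). MIR3142HG, the host of miR-146a, a feedback inhibitor of NF-kB signalling, had 10.16, 10.67 and 12.52 FPKM in DHA libraries, against 17.03, 14.89 and 19.75 FPKM in DMSO libraries. It fell too (log2 change -0.59 ± 0.13, adjusted p = 0.0128), and lost the call without DHA replicate 1 or 2 (0.0576 and 0.0565). GABPB1-AS1, the host of miR-4712, had 4.72, 4.41 and 4.13 FPKM in DHA libraries, against 7.89, 10.65 and 5.60 FPKM in DMSO libraries. It overlaps GABPB1 and has an opposite-strand exon overlap of 1036 bases. GABPB1 was at a log2 change of 0.20 (adjusted p = 0.199), and at 0.32 without DMSO replicate 3 (adjusted p = 0.00369). The fall of GABPB1-AS1 was called at a log2 change of -0.70 (adjusted p = 0.0334), but not without DHA replicate 1, 2 or 3 (0.082, 0.096 and 0.105) or DMSO replicate 1 (0.0893). Nor was it called with no filter on low values (0.0814) or when libraries were rescaled by summed FPKM without immunoglobulin and mitochondrially encoded genes (0.117).

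NEAT1, the scaffold of paraspeckles and the host of miR-612, fell by a small amount. It had 67.09, 66.68 and 68.22 FPKM in DHA libraries, against 82.65, 82.96 and 81.90 FPKM in DMSO libraries. The replicates lay close together in both groups, with a log2 change of -0.29 ± 0.07 (adjusted p = 0.0172, limma). The call was lost without DHA replicate 1, 2 or 3 (0.0922, 0.0946 and 0.0744), without DMSO replicate 1 (0.0606), with quantile normalization (-0.23, adjusted p = 0.118) and when immunoglobulin and mitochondrially encoded genes were left out of the scaling (-0.14, adjusted p = 0.275). Of 14 paraspeckle proteins 13 were tested, 6 rose and 2 fell (61.5% called, beside 40.2% of all tested genes), and 7 rose and 3 fell without DMSO replicate 3 (76.9%, beside 56.5%). RBM14 (log2 change 1.0), CPSF7 (0.64), DAZAP1 (0.53), EWSR1 (0.52), TAF15 (0.31) and HNRNPK (0.27) were higher, CPSF6 (-0.66) and TARDBP (-0.45) were lower, and the core proteins SFPQ (-0.18) and NONO (0.00) did not pass.

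Other well-known lncRNAs were below the level of the rule or outside its types. MALAT1, the abundant nuclear speckle RNA, had 3.21, 2.80 and 3.46 FPKM in DHA libraries, against 4.87, 7.17 and 3.56 FPKM in DMSO libraries. It did not pass (log2 change -0.54, adjusted p = 0.0837, limma), and passed without DMSO replicate 3 (-0.74, adjusted p = 0.00728). MIAT had 2.95, 2.99 and 2.80 FPKM in DHA libraries, against 6.35, 7.10 and 3.35 FPKM in DMSO libraries (-0.70, adjusted p = 0.0509, and -0.98, adjusted p = 0.000161, without DMSO replicate 3). CYTOR had a mean of 4.84 FPKM (log2 change -0.03), and TUG1, typed as a bidirectional promoter lncRNA, had 33.6 FPKM (0.28), and neither passed. FTX, JPX, KCNQ1OT1 and LINC-PINT had means under 1 FPKM and were not tested. OIP5-AS1, a member known in fish as cyrano, had 24.9 ± 0.809 FPKM in DHA libraries and 22.8 ± 3.33 FPKM in DMSO libraries (log2 change 0.13, adjusted p = 0.39). Just inside the rule were AF131215.6 at a mean of 5.01 FPKM (log2 change -0.51) and NFATC2IP-AS1 at 5.01 FPKM (0.61), and just outside it LINC03049 at 4.997 FPKM (log2 change -1.0) and ZNF747-DT at 4.98 FPKM (-0.92).

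Coding genes that start near a lncRNA were compared with it. For 73 members the nearest coding start on the opposite strand, among tested genes, lay within 5 kb. Both genes were called in 14 pairs, in the same direction in 9 (6 higher, 3 lower) and in opposite directions in 5. Of all tested genes 40.2% were called, and whether 14 differs from what the separate calls would give was not tested. The lncRNA alone was called in 29 pairs, the coding gene alone in 14 and neither in 16. Across the 73 pairs Pearson's r of the log2 changes was 0.425 and Spearman's rho 0.438, as a description, since both genes of a pair share the 6 libraries. In the 36 pairs whose lncRNA had no opposite-strand exon overlap r was 0.423. Without DMSO replicate 3, 19 pairs were called in the same direction and 11 in opposite directions, beside 56.5% of all tested genes called. The pairs named here were chosen after their values were seen. In 4 of the 14 both calls were kept whichever library was left out (AC104958.2 with SNTB1, PDCD4-AS1 with PDCD4, PSMB8-AS1 with PSMB8 and MNX1-AS1 with MNX1). In the other 10 at least 1 gene lost its call without at least 1 library. Among the 73 pairs are members whose direction was set by the rule. They include PSMB8-AS1, which reached the mean of 5 FPKM only through the DMSO libraries, and PDCD4-AS1, only through the DHA libraries.

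In the same direction, AC104958.2 rose with SNTB1, the membrane adaptor syntrophin beta. The lncRNA had 17.37, 15.97 and 15.85 FPKM in DHA libraries, against 7.24, 8.11 and 8.41 FPKM in DMSO libraries (log2 change 0.96, adjusted p = 0.000563, limma), and overlaps SNTB1 (1.78, adjusted p = 5.48e-05). The opposite-strand exon overlap of AC104958.2 is 437 bases. PDCD4-AS1 had 6.56, 6.98 and 8.22 FPKM in DHA libraries, against 4.18, 4.32 and 4.21 FPKM in DMSO libraries (0.65, adjusted p = 0.00321), beside PDCD4, a translation inhibitor (0.77, adjusted p = 0.000867), with no shared exon bases. AC068870.2 had 14.75, 15.71 and 8.86 FPKM in DHA libraries, against 5.55, 5.33 and 7 FPKM in DMSO libraries (0.99, adjusted p = 0.0134), beside TLNRD1 (0.82); its call was lost without DHA replicate 1 or 2 (0.055 and 0.0513). SNHG1 and SLC3A2, above, FGD5-AS1 (0.31) with NR2C2 (0.79), and AL928654.2 (0.44) with CRIP2 (0.71) were the other 3 such pairs. FGD5-AS1 lost its call without DHA replicate 1, 2 or 3 (adjusted p = 0.119, 0.12 and 0.109), as did NR2C2, which lost it without DMSO replicate 1 as well (0.0583). AL928654.2 lost its call without DHA replicate 1 or 2 (0.144 and 0.158) or DMSO replicate 1 or 3 (0.125 and 0.0624).

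PSMB8-AS1 fell with PSMB8, a subunit of the immunoproteasome. The lncRNA had 3.08, 3.87 and 2.96 FPKM in DHA libraries, against 7.95, 6.66 and 9.26 FPKM in DMSO libraries (log2 change -1.05, adjusted p = 0.00221, limma), and overlaps PSMB8 (-1.45, adjusted p = 0.00503). PSMB8-AS1 also overlaps TAP1, which fell too (-0.80, adjusted p = 0.000922). Its opposite-strand exon overlap is 1074 bases over all such genes. MNX1-AS1 (-0.75) fell with the homeobox gene MNX1 (-0.69), and ST3GAL6-AS1 (-0.37) with the sialyltransferase gene ST3GAL6 (-0.69). ST3GAL6-AS1 lost its call without DHA replicate 1, 2 or 3 (0.0871, 0.0953 and 0.0541) and without DMSO replicate 1 (0.075).

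In the 5 opposite pairs the lncRNA fell and the coding gene rose. URB1-AS1 had 8.13, 7.35 and 8.66 FPKM in DHA libraries, against 13.61, 10.53 and 18.95 FPKM in DMSO libraries (log2 change -0.73, adjusted p = 0.0275, limma), while URB1, a ribosome assembly factor that starts 104 bases away, was at 0.74 (adjusted p = 0.0429). EMSY-DT had 13.54, 12.83 and 12.57 FPKM in DHA libraries, against 22.80, 21.22 and 34.06 FPKM in DMSO libraries (-0.92, adjusted p = 0.00805), while EMSY, a BRCA2 partner, was at 0.49 (adjusted p = 0.0375). TFIP11-DT (-0.90) stood beside the splicing factor gene TFIP11 (0.37), EIF3J-DT (-0.34) beside the translation factor gene EIF3J (0.71), and ZEB1-AS1 (-0.35) beside the transcription factor gene ZEB1 (0.68). None of these 5 pairs kept both calls: without DHA replicate 1, 2 or 3 the adjusted p was 0.12, 0.122 and 0.0964 for URB1, 0.12, 0.1 and 0.101 for EMSY, 0.107, 0.128 and 0.0893 for TFIP11, and 0.076, 0.0615 and 0.0684 for ZEB1. URB1, EMSY and ZEB1 also lost the call without DMSO replicate 1 (0.0694, 0.0707 and 0.0625). URB1-AS1 lost it without DHA replicate 1, 2 or 3 (0.0816, 0.0955 and 0.069) and without DMSO replicate 1 (0.0716), while EIF3J-DT (0.0649 and 0.0588) and ZEB1-AS1 (0.0726 and 0.0668) lost it without DHA replicate 1 or 2.

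**Figure D4:**
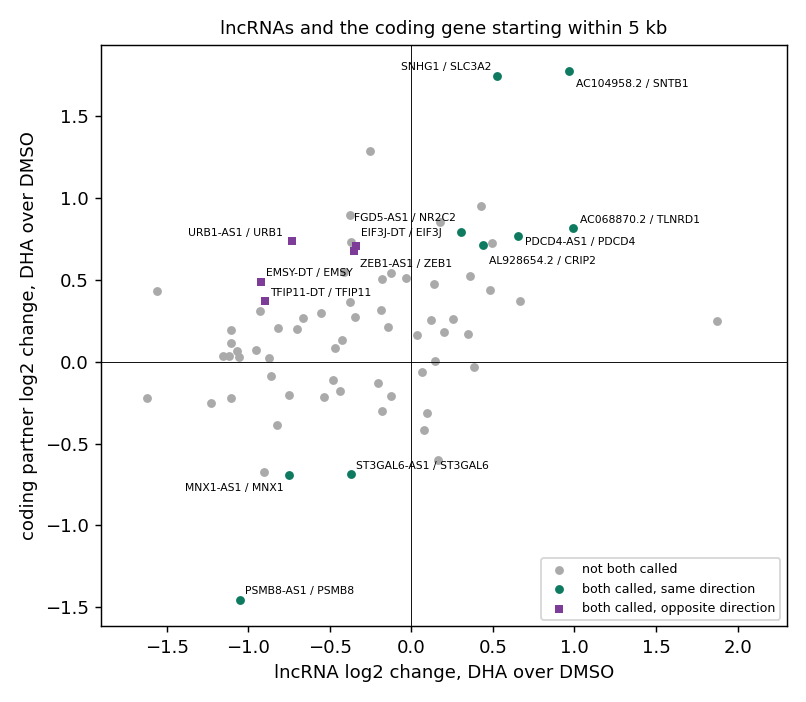
Log2 change of FPKM + 1 (DHA over DMSO) of 73 lncRNAs against that of the coding gene whose start lies nearest on the opposite strand within 5 kb. Named points are the 14 pairs in which both genes were called: 9 in the same direction and 5 in opposite directions, each of those 5 with the lncRNA lower and the coding gene higher.

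**Figure D5:**
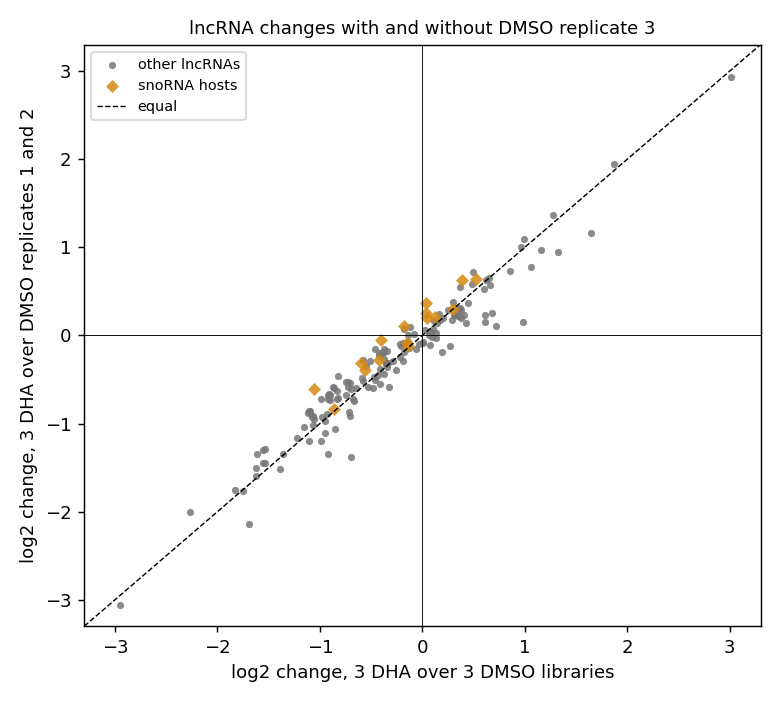
Log2 change of each of the 167 lncRNAs with all 6 libraries against the change without DMSO replicate 3, with snoRNA hosts as diamonds and a dashed line at equal values. Points lie near the line, 13 lie in the quadrants of unlike sign, and none of those 13 was called with all libraries.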

How the data were processed

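Values were FPKM as deposited by the authors, per the file headers, in 1 table of LP-1 genes with a column per library. Library preparation used a SMARTER mRNA kit, per the labels. The submitters' processing notes name the builds GRCm38 and mm10, whereas the table holds human Ensembl IDs; its aligner, counter and annotation are unknown here (not given in the sources used here). Gene types, positions, exon lengths and overlaps were taken from GENCODE release 29 (58254 of 61806 IDs matched), and read numbers were worked back from small FPKM values, of which 89.7 to 90.8% (genes with 200 to 800 bases of exons, up to 100 reads) lay within 0.1 read of a whole number. A floor of 3 reads covers counting error only.

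From these FPKM values log2(FPKM + 1) was computed, genes of at least 1 FPKM in at least 3 of 6 libraries were kept (12514), and DHA was compared with DMSO with limma 3.58.1 in R 4.3.3 (lmFit, then eBayes with its trend option; two-sided). P-values were adjusted by Benjamini and Hochberg's method over the whole tested table, and 0.05 was the threshold. The log2(FPKM + 1) scale understates changes of low genes. A test on simulated data was run first. Alternatives were a pseudocount of 0.1, other filters and scalings (TMM-style with trims of 30% and 5%, quantile, and a rescaling that leaves immunoglobulin genes and the genes of the mitochondrial genome out of the sum), no variance trend, a replicate block, other member rules and leaving out each library.

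The members and gene lists were chosen with earlier results of these data known. Named genes were every snoRNA host and miRNA host, the 12 largest rises and 12 largest falls among the other called members, 11 well-known lncRNAs whatever their result, the 5 of highest mean FPKM, the 2 genes on each side of the rule's threshold, and partner genes.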

Additional observations from a re-analysis of the deposited data

How the results depend on the processing

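Of 33 called lncRNAs named by the rule none changed sign under any of the 14 alternative settings, and 622 of 700 values of the 50 named lncRNAs kept their direction and their side of the threshold. Signs turned only in lncRNAs that did not pass: ZFAS1 (-0.001 without DHA replicate 3, -0.025 without DMSO replicate 1, -0.133 without DMSO replicate 2), SNHG12 (-0.098 without DMSO replicate 2), SNHG5 (-0.039 without DMSO replicate 1, -0.222 without DMSO replicate 2), EPB41L4A-AS1 (0.108 without DMSO replicate 3), DANCR (0.002 rescaled) and GAS5 (0.04 with quantile normalization, 0.022 rescaled, 0.092 without DMSO replicate 3). With 1 library left out the highest values were 0.254 for ZFAS1, 0.2 for SNHG12 and 0.369 for SNHG5, and the lowest -0.365 for EPB41L4A-AS1 and -0.296 for GAS5. Rescaled here means that each library was divided by its summed FPKM, taken without immunoglobulin genes and the genes of the mitochondrial genome. The main fit used FPKM without rescaling. Rescaling moved the median of all tested genes to 0.13 (log2) and their calls to 2835 higher and 1840 lower, beside 2504 and 2523, and the lncRNA calls to 26 higher and 55 lower. The summed FPKM of all genes was 2.71e+05 to 2.74e+05 in DHA libraries and 3.07e+05 to 3.26e+05 in DMSO libraries. How much of the move came from equal sums and how much from the genes left out was not tested.

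With 1 library left out, 2919 to 7073 of all tested genes were called (5027 with all), 56 to 112 lncRNAs (91), 1 to 10 snoRNA hosts (4) and 55 to 102 other lncRNAs (87). When the test held only genes averaging 5 FPKM or more, 3034 of 6903 genes were called. At least a 2-fold change left 895 genes, 32 lncRNAs, 0 hosts and 32 others. Members of a mean of at least 1 FPKM gave 399 calls (10 hosts, 389 others), and of at least 10 FPKM 28 calls (25 others). The 4 host calls became 2 with no filter, with the replicate block, without opposite-strand exon overlap and without processed transcripts. In the other settings each count stayed within 1.5 times.

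Same-numbered libraries did not pair: the correlations of their deviations were 0.0742, 0.0237 and 0.183, and not every library correlated best with its own number. The replicate block gave 4559 calls of all genes, 83 of lncRNAs and 81 of others; SNHG3 (adjusted p = 0.0574), SNHG30 (0.0556) and NEAT1 (0.0662) were not called under it. Low reads limit CHILL1 in DMSO and the snoRNA rows.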
